A study of Mus musculus with 4 samples.

Results

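The aryl hydrocarbon receptor gene Ahr, its dimer partners Arnt and Arnt2, its feedback genes Ahrr and Tiparp, and the cytochrome P450 family 1 genes Cyp1a1, Cyp1a2 and Cyp1b1 were examined in dendritic cells of the mouse spleen. Members were taken by symbol: all 15 probe sets to which the platform annotation gives one of these 8 symbols, of 22626 probe sets tested, and 8 of 12393 genes with a single-symbol probe set. Tiparp and Cyp1b1 had 3 probe sets each, Ahr, Arnt and Arnt2 had 2 each, and Ahrr, Cyp1a1 and Cyp1a2 had 1 each.

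The groups were dendritic cells of mice given TCDD (2,3,7,8-tetrachlorodibenzo-p-dioxin, a dioxin and high-affinity ligand of the receptor) at 10 µg/kg in corn oil, and dendritic cells of mice given DMSO in corn oil, with 2 arrays in each group. All mice were female C57BL/6 animals, 8 to 12 weeks old, injected intraperitoneally and killed 24 h later. Each group is described as 3 mice whose spleens were pooled. The cells were isolated by density gradient and magnetic bead sorting, with a stated purity above 90%, and their RNA was amplified before labelling. The arrays of a group are numbered as biological replicates, but the sources used here do not say whether each had its own pool. P-values therefore measure only how the arrays vary. In pooled RNA from sorted cells, fewer cells of a type and less RNA per cell cannot be told apart.

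The receptor (AhR) is a transcription factor of the bHLH-PAS family that waits in the cytosol bound to chaperones. A ligand such as TCDD sends it to the nucleus, where it pairs with ARNT and binds dioxin response elements, short DNA sites with the core GCGTG. Its classical targets are the CYP1 enzymes, which oxidise aromatic compounds, and 2 brakes on the pathway: Ahrr, whose protein competes with the receptor, and Tiparp, whose protein ADP-ribosylates it. C57BL/6 mice carry a high-affinity Ahr allele. Ahrr is known in mice to be expressed mainly in immune cells of barrier organs, Cyp1a2 mainly in liver, and Cyp1b1 in many tissues outside the liver.

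Ahrr was the member that stood apart. Its probe set differed by 2.15 on the log2 scale (SE 0.28, n = 2 arrays per group), or 4.44-fold higher with TCDD on the RMA scale, against DMSO values low enough for this fold to be uncertain. None of the 5 CYP1 probe sets differed by more than 0.25. Ahr itself gave opposite differences on its 2 probe sets, at -1.10 and 0.45. The Arnt probe sets both differed by 0.00. By limma, 0 of the 15 member probe sets passed an adjusted p under 0.05 (Benjamini-Hochberg over all probe sets), as did 0% of all 22626. At an unadjusted p under 0.05 there were 2 members, against 13.1% of all probe sets.

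All values given here are RMA values on the log2 scale, rounded by the depositors to steps of 0.1. RMA values carry no detection call. A probe set was called dim when its mean over the 4 arrays was under 5.525, the 40th percentile of all probe sets. By this measure 8 members were dim and 7 were not. Ahrr counts as not dim only through its TCDD arrays, so no summary of differences by class is given.

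**Figure D1:**
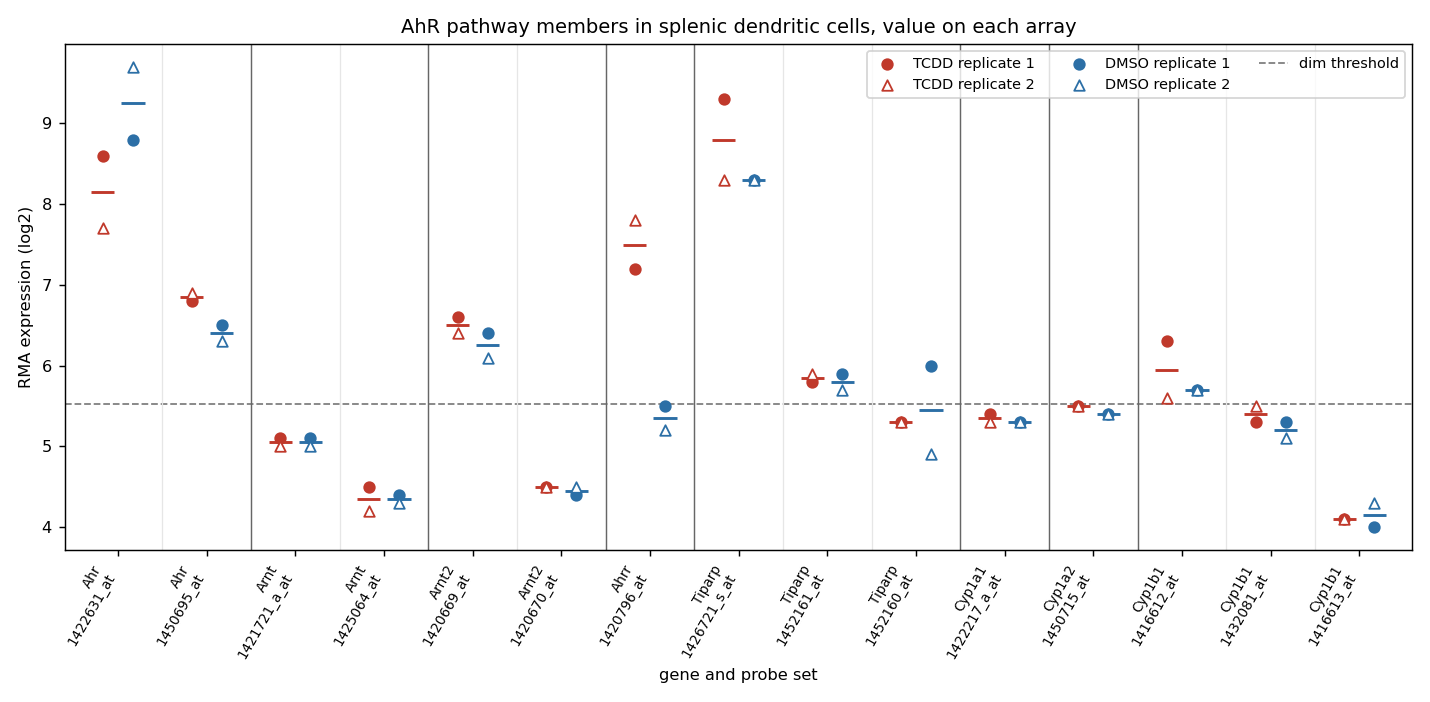
RMA expression (log2) of the 15 member probe sets on each of the 4 arrays, with TCDD left of DMSO, a bar at each group mean and a dashed line at the dim threshold. Ahrr lies at 7.2 and 7.8 with TCDD and at 5.5 and 5.2 with DMSO, while the Cyp1a1 and Cyp1a2 values lie between 5.3 and 5.5 on every array.

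Both TCDD arrays lay above both DMSO arrays in 3 member probe sets (Ahrr, the dimmer Ahr probe set and Cyp1a2), against 19% of all probe sets. Both lay below in 1 (the brighter Ahr probe set), against 18.4% of all probe sets. The 4 members without overlap in either direction compare with 37.4% of all probe sets, so their share was not above the background. Among all probe sets the split was 4306 higher and 4156 lower, and it became 2977 higher and 5567 lower after each array was centred on its median. At an unadjusted p under 0.05 it was 1442 higher and 1516 lower, and 801 and 1993 after centring. The arrays' median levels were 6.0 and 5.9 with TCDD and 5.9 and 5.9 with DMSO, which are apart by no more than 1 rounding step.

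Of the 9 measured dendritic cell markers 8 were not dim, and 1, Xcr1, was dim. Itgax was at 9.1 and 9.4 with TCDD and at 9.6 and 10.1 with DMSO, and Flt3 at 8.8 and 9.2 with TCDD and at 9.6 and 9.0 with DMSO. All 9 macrophage and monocyte markers were not dim either. The brightest of them, Csf1r, was at 12.5 and 11.4 with TCDD and at 12.1 and 12.1 with DMSO. Such levels do not tell these cell types apart. The summed linear level of 9 measured dendritic cell markers of 10 was 16900 and 21400 with TCDD and 30500 and 22100 with DMSO. For 9 measured neutrophil markers of 10 it was 3020 and 658 with TCDD and 718 and 564 with DMSO, the high value coming from TCDD replicate 1. That array held S100a8, a neutrophil alarmin, at 10.3, and TCDD replicate 2 held it at 5.6, against 6.4 and 5.9 with DMSO. TCDD replicate 1 also had the widest gap between the 3′ end and the middle of both control transcripts. For Gapdh the gap was 3.6 on the log2 scale, with 2.0 in TCDD replicate 2 and 1.5 and 2.1 with DMSO. For beta-actin it was 4.0, with 2.0 in TCDD replicate 2 and 1.9 and 2.1 with DMSO. The summed linear level of 9 macrophage and monocyte markers was 8240 and 5450 with TCDD and 9070 and 7710 with DMSO. For 6 B cell markers of 7 it was 589 and 427 with TCDD and 647 and 617 with DMSO. For 6 T and NK cell markers of 9 it was 369 and 297 with TCDD and 354 and 332 with DMSO, and for 4 red cell markers of 6 it was 399 and 405 with TCDD and 350 and 365 with DMSO. The sums of dendritic cell and B cell markers were thus lower, and that of red cell markers higher, on both TCDD arrays than on both DMSO arrays. The nearest arrays were little apart, at 21400 and 22100 for dendritic cell markers and at 589 and 617 for B cell markers. In TCDD replicate 1, with the lowest dendritic cell sum, Cd74 was at 10.9, against 12.6 in TCDD replicate 2 and 13.2 and 12.5 with DMSO. Single markers did not all follow. Of the 9 dendritic cell markers 4 lay below DMSO without overlap and 0 above, and of the 6 B cell markers 2 lay below and 1 above. Of the 9 macrophage and monocyte markers 3 lay below and 0 above, with a median difference of -0.80. The sum of these 9, in which Csf1r weighs most, did not separate the groups. Over all genes, read from 1 probe set per gene, 19.4% lay below and 20% above. The part of these cell types in the results was not tested.

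Ahr, the receptor gene, was measured by 2 probe sets designed from the same database sequence. The brighter one, 1422631_at, read 8.6 and 7.7 with TCDD and 8.8 and 9.7 with DMSO. The groups did not overlap, but only 0.2 separated the higher TCDD array from the lower DMSO array, while the replicates of each group were 0.9 apart. The difference was -1.10 (SE 0.521, 95% interval -2.75 to 0.55), or 2.14-fold lower with TCDD, at an adjusted p of 0.444 by limma. It was the 348th most negative difference of all probe sets. Bright probe sets tended to be lower with TCDD: the median difference of the 2487 probe sets with a mean level from 8 to 10 was -0.35. After quantile normalization the Ahr difference was -0.78. It was -0.65 without TCDD replicate 2, the array with the lowest value, and ran from -1.55 to -0.65 with any 1 array left out.

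The other Ahr probe set, 1450695_at, read 6.8 and 6.9 with TCDD and 6.5 and 6.3 with DMSO. Here both TCDD arrays were the higher ones, and the distance between the groups was 0.3. The difference was 0.45 (SE 0.11, 95% interval 0.10 to 0.80), with an unadjusted p of 0.026 and an adjusted p of 0.379 by limma. Within an array, the brighter probe set exceeded the dimmer one by 1.8 and 0.8 with TCDD and by 2.3 and 3.4 with DMSO. This gap was thus smaller on both TCDD arrays than on both DMSO arrays, and the sign of the Ahr difference depends on the probe set read. The positions of the probes along the transcript were not used here.

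Arnt, the obligate nuclear partner of the receptor, had equal group means on both probe sets. The probe set 1421721_a_at read 5.1 and 5.0 with TCDD and 5.1 and 5.0 with DMSO, for a difference of 0.00 (95% interval -0.27 to 0.27). The other, 1425064_at, read 4.5 and 4.2 with TCDD and 4.4 and 4.3 with DMSO (95% interval -0.45 to 0.45). Both were dim, where a change of the transcript need not show.

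Arnt2 encodes a close relative of ARNT known mainly from brain and kidney. Its probe set 1420669_at read 6.6 and 6.4 with TCDD and 6.4 and 6.1 with DMSO, so that the lower TCDD array equalled the higher DMSO array. The difference was 0.25 (SE 0.159, adjusted p = 0.536 by limma). The dim probe set 1420670_at read 4.5 and 4.5 with TCDD and 4.4 and 4.5 with DMSO.

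Ahrr encodes a protein that resembles the receptor in its DNA-binding part but represses. Its single probe set, 1420796_at, read 7.2 and 7.8 with TCDD and 5.5 and 5.2 with DMSO. Both DMSO arrays were under the dim threshold and both TCDD arrays well over it, with 1.7 between the groups and at most 0.6 between replicates. The 95% interval of the difference ran from 1.27 to 3.04, that is from 2.4-fold to 8.2-fold. The unadjusted p was 0.0044 and the adjusted p 0.349 by limma. No probe set had a lower adjusted p, but many shared this value. By unadjusted p Ahrr ranked 178th of all probe sets. Only 3 of the 22626 probe sets had a more positive difference.

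Ahrr was higher in TCDD replicate 2 than in TCDD replicate 1, whereas the summed neutrophil markers were highest in TCDD replicate 1. Of the 9 neutrophil markers 3 were higher on both TCDD arrays without overlap, as Ahrr was, against 20% of all genes. Camp, an antimicrobial peptide gene, read 6.9 and 6.5 with TCDD and 5.6 and 5.1 with DMSO. The part of these markers in the Ahrr difference was not tested. Against the DMSO mean Ahrr stood at 1.85 in TCDD replicate 1 and 2.45 in TCDD replicate 2. Leaving out any single array gave differences from 1.85 to 2.45. Median centring, quantile normalization and cyclic loess gave 2.10 to 2.25, and the other settings leave the difference as it is.

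**Figure D2:**
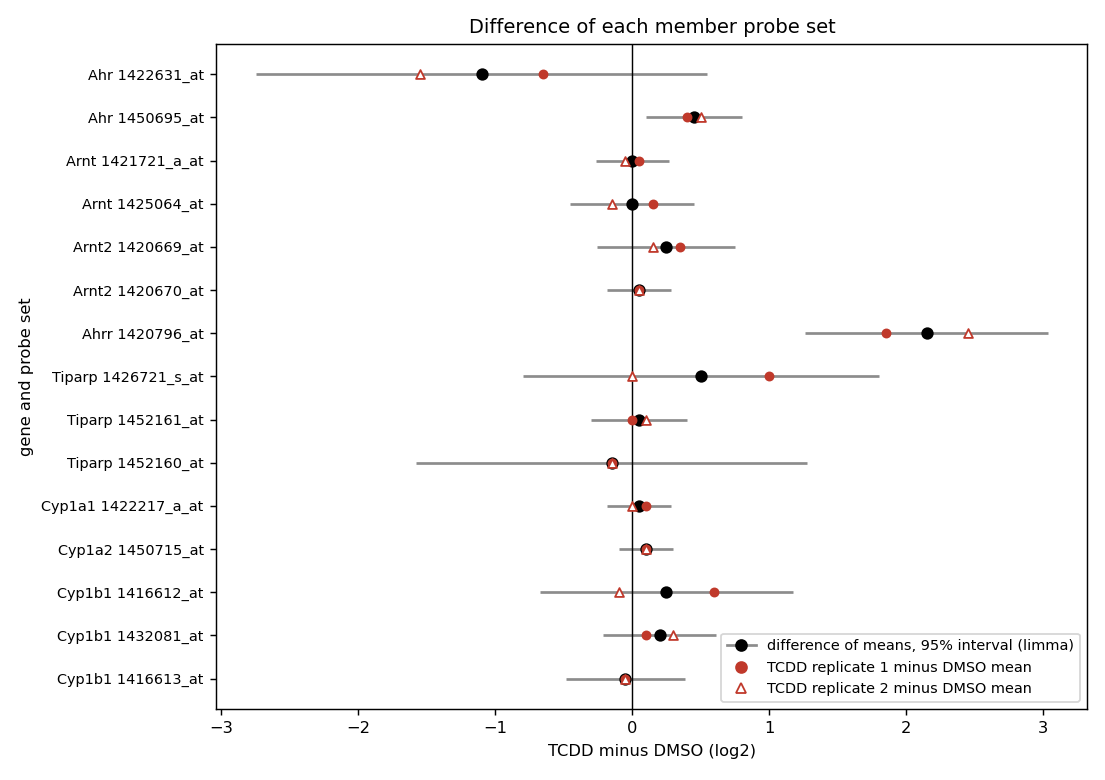
Difference TCDD minus DMSO (log2) of each member probe set with its 95% interval from limma, and each TCDD array against the DMSO mean. The Ahrr interval, from 1.27 to 3.04, lies to the right of every CYP1 interval, of which the highest upper bound is 1.17. Of the 5 CYP1 probe sets 4 are dim, where a change of the transcript need not show.

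Promoter sequences of the feedback and CYP1 genes are shown because these genes are the classical targets and their windows differ in core matches. Of these genes Ahrr alone had a large measured difference, while 4 of the 5 CYP1 probe sets were dim. The sequences were taken as windows around the gene's start. Each is 300 bases from RefSeq (build GRCm38.p6), 5′ to 3′ on the gene's strand, from 250 bases before to 50 bases after the gene's start. Capitals mark the core GCGTG or its reverse-strand letters CACGC, and the Cyp1a2 window holds neither.
Ahrr (chr13:74292282-74292581, minus strand): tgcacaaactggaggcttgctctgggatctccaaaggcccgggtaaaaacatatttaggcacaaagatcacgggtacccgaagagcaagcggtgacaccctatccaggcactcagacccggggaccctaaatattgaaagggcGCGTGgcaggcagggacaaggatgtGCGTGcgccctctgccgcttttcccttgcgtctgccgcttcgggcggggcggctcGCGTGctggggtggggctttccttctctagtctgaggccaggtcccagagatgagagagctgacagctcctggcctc
Tiparp (chr3:65528197-65528496, plus strand): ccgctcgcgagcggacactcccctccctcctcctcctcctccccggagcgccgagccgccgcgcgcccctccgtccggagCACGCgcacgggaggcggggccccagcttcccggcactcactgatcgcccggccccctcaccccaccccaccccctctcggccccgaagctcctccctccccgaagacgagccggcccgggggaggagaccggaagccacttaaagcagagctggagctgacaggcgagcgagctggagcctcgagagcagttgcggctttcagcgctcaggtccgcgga
Cyp1a1 (chr9:57697363-57697662, plus strand): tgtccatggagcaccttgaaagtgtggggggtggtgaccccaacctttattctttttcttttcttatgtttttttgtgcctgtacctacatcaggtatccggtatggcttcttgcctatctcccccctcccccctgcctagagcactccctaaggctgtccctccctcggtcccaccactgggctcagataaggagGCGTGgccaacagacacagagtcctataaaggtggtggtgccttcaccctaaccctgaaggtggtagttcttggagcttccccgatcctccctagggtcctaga
Cyp1a2 (chr9:57683606-57683905, minus strand): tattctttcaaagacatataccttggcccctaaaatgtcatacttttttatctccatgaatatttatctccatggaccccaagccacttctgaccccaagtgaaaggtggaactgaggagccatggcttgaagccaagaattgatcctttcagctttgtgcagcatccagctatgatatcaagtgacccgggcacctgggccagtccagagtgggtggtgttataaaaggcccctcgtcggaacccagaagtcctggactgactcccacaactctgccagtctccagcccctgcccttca
Cyp1b1 (chr17:79715012-79715311, minus strand): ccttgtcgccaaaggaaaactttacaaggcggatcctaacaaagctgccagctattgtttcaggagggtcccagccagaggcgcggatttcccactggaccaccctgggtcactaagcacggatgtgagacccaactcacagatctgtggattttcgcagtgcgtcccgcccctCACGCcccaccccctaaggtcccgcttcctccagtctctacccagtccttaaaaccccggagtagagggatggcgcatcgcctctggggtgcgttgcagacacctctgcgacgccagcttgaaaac

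The Ahrr window held 3 core matches, all on the gene's strand, starting at positions -107, -82 and -27 from the gene's start. Among all 32851 promoter windows 32.4% held at least 1 match and 3.91% at least 3. The longer form TNGCGTG, searched on both strands and overlapping the core, was present once in the Ahrr window, where it contains the match nearest the start. It was found in 5.07% of all windows and in none of the other member windows. The core letters are also part of the recognition sites of hypoxia-inducible factors, so a match does not name a factor.

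Tiparp, Cyp1a1, Cyp1b1 and Arnt had 1 core match each, and Arnt2 and Cyp1a2 had 0. The Cyp1a1 match started at -54, the Cyp1b1 match at -76 on the reverse strand and the Tiparp match at -170 on the reverse strand. Sequences for 7 of the 8 members were matched by symbol, and Ahr was not among them. The core contains the pair CG, and windows rich in G and C hold it more often. Among windows within 5 percentage points of the GC content of Ahrr (60.3%) 47.1% held a core, against 30.4% around that of Cyp1a1 (54.0%) and 65% around that of Tiparp (73.7%). The shares with at least 3 matches and with the longer form were not taken at matched GC content. These matches describe the letters of 1 window per gene, and sites farther from the start were not searched.

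**Figure D3:**
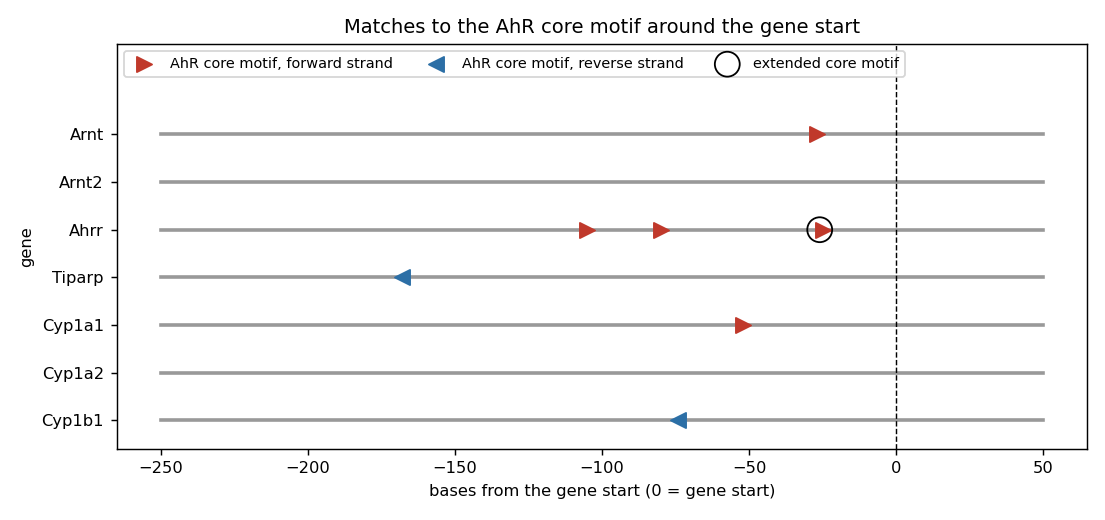
Positions of core motif matches (triangles, pointing right on the gene's strand and left on the reverse strand) and of the extended form (circle), in bases from the gene start, in the windows of 7 member genes. Ahrr holds 3 matches and the extended form, Tiparp, Cyp1a1, Cyp1b1 and Arnt hold 1 match each, and Arnt2 and Cyp1a2 hold 0.

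Tiparp, the ADP-ribosyltransferase gene, was measured by 3 probe sets designed from the same database sequence. The brightest, 1426721_s_at, belongs to a class whose probes can match several transcripts. It read 9.3 and 8.3 with TCDD and 8.3 and 8.3 with DMSO, so that TCDD replicate 1 alone was high. The difference of 0.50 (SE 0.411, adjusted p = 0.609 by limma) was 0.00 without TCDD replicate 1 and 1.00 without TCDD replicate 2. TCDD replicate 1 is the array with high neutrophil markers and the wide 3′ gaps of Gapdh and beta-actin, and their part in this value was not tested.

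The other Tiparp probe sets did not share that high value. The probe set 1452161_at read 5.8 and 5.9 with TCDD and 5.9 and 5.7 with DMSO, a difference of 0.05 that was -0.01 under cyclic loess. The dim probe set 1452160_at read 5.3 and 5.3 with TCDD and 6.0 and 4.9 with DMSO. Its DMSO arrays were thus 1.1 apart, the widest replicate gap among the members, and its interval of -1.58 to 1.28 leaves a change of this gene unresolved.

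Cyp1a1, the enzyme gene most used as a readout of AhR activity, read 5.4 and 5.3 with TCDD and 5.3 and 5.3 with DMSO. The 4 arrays were within 1 rounding step of each other. The difference was 0.05 (SE 0.0745, 95% interval -0.19 to 0.29), and the upper bound corresponds to 1.22-fold on this probe set. Under cyclic loess the difference was -0.03. The probe set was dim on all arrays, where the scale of RMA is compressed and a low transcript need not show.

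Cyp1a2, which encodes the related enzyme and lies beside Cyp1a1 on chromosome 9 on the opposite strand, read 5.5 and 5.5 with TCDD and 5.4 and 5.4 with DMSO. The groups did not overlap, but they were apart by a single rounding step. The difference of 0.10 (95% interval -0.10 to 0.30, adjusted p = 0.534 by limma) was 0.05 after median centring, where the groups overlapped. As for Cyp1a1, the probe set was dim.

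Cyp1b1, known from many tissues outside the liver, had 3 probe sets. The probe set 1416612_at read 6.3 and 5.6 with TCDD and 5.7 and 5.7 with DMSO, so that the high value again lay in TCDD replicate 1 only. Its difference was 0.25 (SE 0.291, adjusted p = 0.732 by limma), and it was -0.10 without TCDD replicate 1. The same markers moved with this array as for Tiparp, and their part was not tested.

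The dim Cyp1b1 probe sets were close in both groups. The probe set 1432081_at read 5.3 and 5.5 with TCDD and 5.3 and 5.1 with DMSO, a difference of 0.20 (adjusted p = 0.538 by limma). The probe set 1416613_at read 4.1 and 4.1 with TCDD and 4.0 and 4.3 with DMSO, a difference of -0.05. Over the 5 CYP1 probe sets the differences ran from -0.05 to 0.25, and 4 of the 5 were dim. The interval of 1416612_at, from -0.67 to 1.17, does not exclude a change of 2-fold, and the intervals of the other 4 reached no higher than 1.53-fold.

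**Figure D4:**
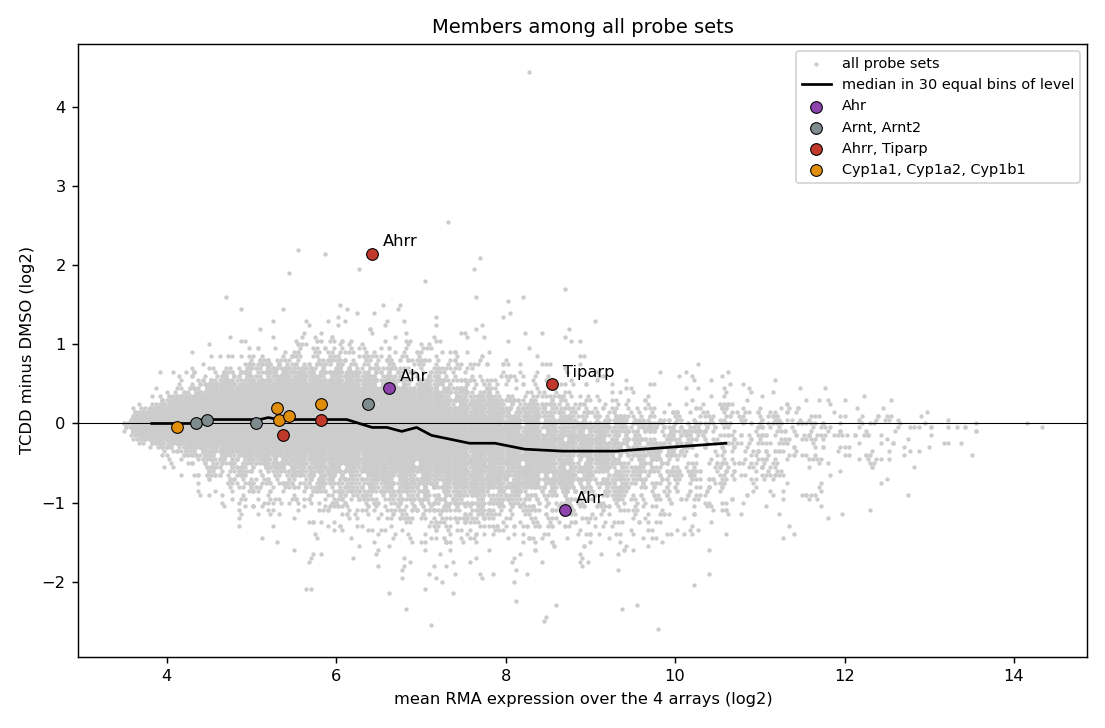
Difference TCDD minus DMSO (log2) against mean expression over the 4 arrays (log2) for all 22626 probe sets (grey), with their median in 30 bins of level (line) and the 15 members (coloured by role). Ahrr at 2.15 stands near the top of the cloud, the brighter Ahr probe set at -1.10 lies below the line, and the CYP1 probe sets lie near 0 at the dim end.

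Other genes of the pathway were read from 1 probe set per gene, the brightest, on which 0% of 12393 genes were called by limma, 14.5% had an unadjusted p under 0.05, and 39.4% lay without overlap, 20% above DMSO and 19.4% below. The median difference over all these genes was 0.00. In each of the 5 lists 0 genes were called in either direction.

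Of 13 further AhR target genes 10 were measured, with 3 above DMSO without overlap, 0 below and a median difference of 0.10. The cytochrome P450 gene Cyp2s1 was at 6.5 and 6.3 with TCDD and at 6.1 and 6.0 with DMSO. Xdh, the xanthine dehydrogenase gene, was at 6.0 and 5.9 with TCDD and at 5.8 and 5.7 with DMSO. The differences were 0.35 for Cyp2s1 and 0.20 for Xdh, both of them far smaller than that of Ahrr. The amino acid transporter gene Slc7a5 differed by -0.15, the antioxidant regulator gene Nfe2l2 by -0.30 and Selenbp1 by 0.35, all with overlap. The list held 1 gene with an unadjusted p under 0.05, which was Cyp2s1 (adjusted p = 0.379 by limma). Without TCDD replicate 1 the list median was -0.02.

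The chaperone list had 2 of 5 genes measured. Hsp90aa1, the heat shock protein that holds the receptor in the cytosol, differed by -0.10 with overlap. Src, a kinase found in the complex, was at 6.4 and 6.6 with TCDD and at 6.3 and 6.1 with DMSO, a difference of 0.30 without overlap.

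Of 12 bHLH-PAS relatives, transcription factors built like the receptor, 11 were measured, with a median of 0.00. Without overlap 4 of them lay above DMSO and 2 below. The 3 dim genes of the list were all among the 4 above. An unadjusted p under 0.05 by limma was found for 3 genes of the list, Hif3a among them. Hif1a, the hypoxia factor that also pairs with ARNT, differed by -0.10 and the circadian factor gene Clock by -0.35, both with overlap. Hif3a was at 6.9 and 6.8 with TCDD and at 7.2 and 7.1 with DMSO, a difference of -0.30 (adjusted p = 0.379 by limma). Epas1, a further hypoxia factor, differed by 0.15 without overlap and Sim1 by -0.15 with overlap. The list median was -0.15 without TCDD replicate 1 and 0.15 without TCDD replicate 2.

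Cofactors of AhR and AhRR had differences mostly below 0, none of them called. Of 16 genes 12 were measured, with 4 below DMSO without overlap, 1 above and a median difference of -0.45. Med1, a Mediator subunit, was at 7.4 and 7.0 with TCDD and at 8.4 and 8.4 with DMSO, a difference of -1.20 (SE 0.174, adjusted p = 0.349 by limma). Rela, an NF-kB subunit that interacts with the receptor, differed by -0.55 without overlap, while Rb1 at -0.60, Relb at -0.60 and Smarca4 at -0.20 overlapped. The median was -0.21 after quantile normalization and -0.08 without TCDD replicate 2. Of the 12 genes 11 were not dim, and the median difference of all probe sets was -0.10 at mean levels from 6 to 8 and -0.35 from 8 to 10.

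Among genes that supply P450 enzymes with electrons and heme 5 of 7 were measured, with 2 below DMSO without overlap, 0 above and a median of -0.40. Cyb5a, the cytochrome b5 gene, was at 9.3 and 9.6 with TCDD and at 10.0 and 10.1 with DMSO, a difference of -0.60 (adjusted p = 0.379 by limma). Alas1, the first enzyme of heme synthesis, was at 6.6 and 6.9 with TCDD and at 7.8 and 7.3 with DMSO, a difference of -0.80 (adjusted p = 0.379 by limma). Cyb5b differed by -0.40, Fech, the last enzyme of heme synthesis, by -0.10 and the reductase gene Cyb5r3 by -0.05, all with overlap.

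**Figure D5:**
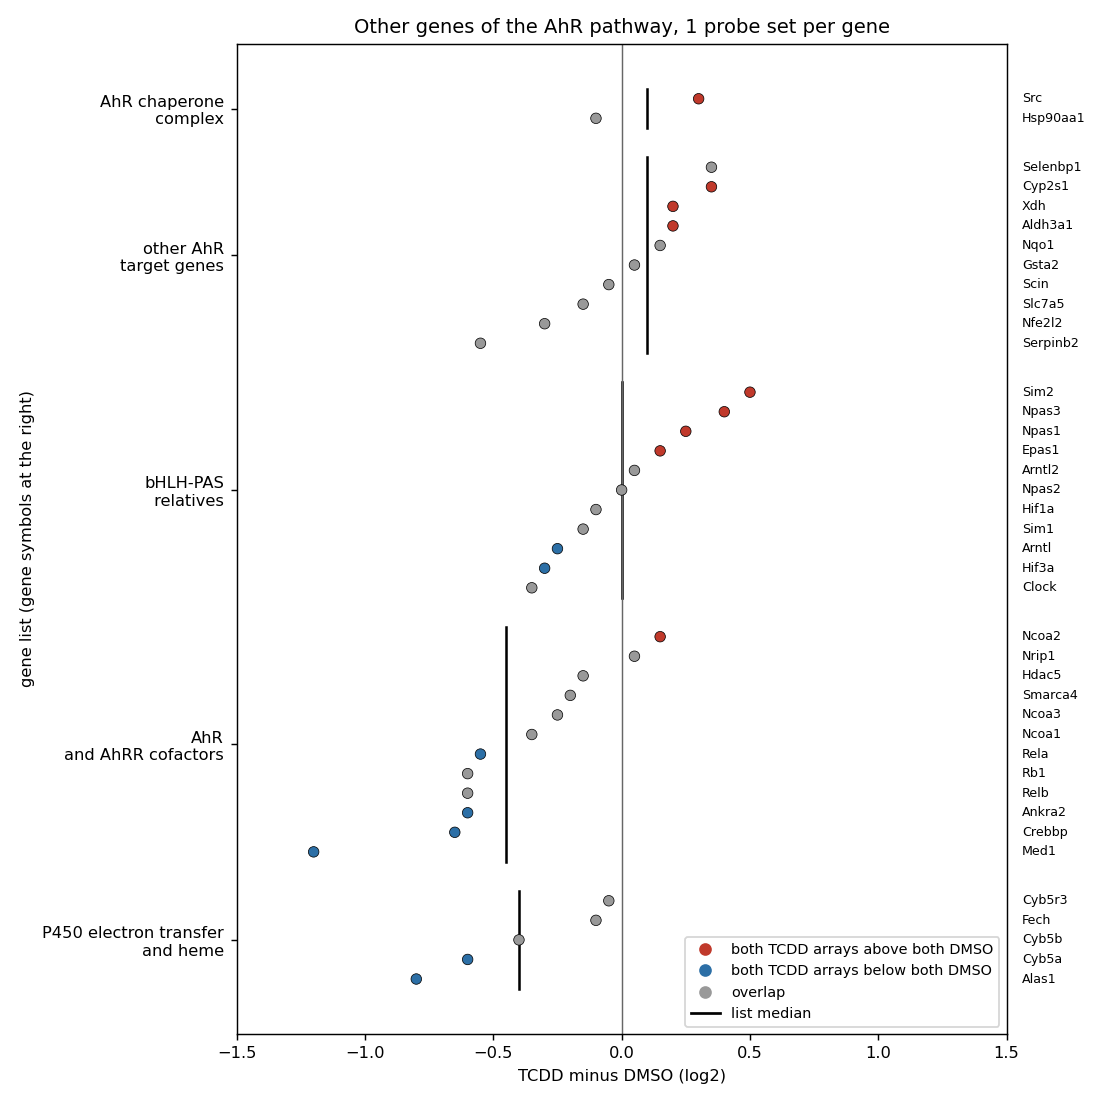
Difference TCDD minus DMSO (log2) of each measured gene in 5 lists of AhR pathway genes, 1 probe set per gene, coloured by whether the groups overlap, with the list median as a bar. Medians lie at 0.10, 0.10 and 0.00 in the upper lists and at -0.45 for cofactors and -0.40 for electron transfer and heme.

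The probe sets most like Ahrr were sought by the root mean square difference of the 4 array values, each taken from its own mean over the 4 arrays, among 12451 single-symbol probe sets that were not dim. The nearest were Coro1c, an actin-binding coronin gene, at 0.269, Aldh2, the mitochondrial aldehyde dehydrogenase gene, at 0.286, Vat1 at 0.346, Il1r2, the interleukin-1 decoy receptor gene, at 0.374 and Dmtf1 at 0.394. Coro1c read 6.6 and 7.9 with TCDD and 5.4 and 5.2 with DMSO. Aldh2 read 8.1 and 8.8 with TCDD and 6.9 and 6.8 with DMSO. Like Ahrr, these 5 probe sets had both TCDD arrays above both DMSO arrays and TCDD replicate 2 as the highest. This shared order follows from how they were selected. Coro1c and Dmtf1, like Ahrr, had both DMSO arrays under the dim threshold and counted as not dim only through their TCDD arrays.

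The brighter Ahr probe set had much closer matches. Acsl4, a fatty acyl-CoA synthetase gene, lay at 0.071, the pocket protein gene Rbl1 and the microtubule-severing gene Spast at 0.083 each, the TGF-beta receptor gene Tgfbr1 at 0.10 and the zinc finger gene Zfp148 at 0.109. Acsl4 read 6.7 and 5.7 with TCDD and 6.8 and 7.6 with DMSO. All 5 were lowest in TCDD replicate 2 and highest in DMSO replicate 2, as Ahr was, which again follows from the selection. With 4 arrays such likeness describes the arrays only.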

How the data were processed

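RNA of pooled splenic dendritic cells was hybridised to Affymetrix arrays, 2 with TCDD and 2 with DMSO. The deposited table holds log2 values made by the authors with RMA, according to the submitters' processing notes. RMA normally includes quantile normalization, but the deposited distributions were not equal: the 95th percentile was 9.3 and 9.0 with TCDD and 9.5 and 9.6 with DMSO. Which arrays or steps the normalization covered is therefore not known. The RMA software and the genome build are not given. Every value was a multiple of 0.1. Of 22690 probe sets, 64 controls were left out. Gene names came from the platform annotation, updated by gene ID.

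The difference TCDD minus DMSO was fitted over all probe sets with limma 3.58.1 in R 4.3.3 (lmFit, eBayes, two-sided), with Benjamini-Hochberg adjustment. Intervals are 95% moderated ones on 3.03 degrees of freedom. No permutation test was run, since the smallest exact p for 2 arrays against 2 is 0.33. The fit was tested on simulated data in which all probe sets had the same spread, a simpler setting than these data. The number of arrays limits the precision.

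The members, gene lists and tests were chosen with earlier results of these data known. Named were all member probe sets, up to 5 genes per pathway list by mean level, and the 5 nearest patterns to Ahrr and to Ahr. Alternatives were median centring, quantile normalization, leaving out each array or the dim probe sets, a replicate block, a robust prior with a trend, the brightest probe set of each gene alone, and a threshold of 0.10. Cyclic loess and a crossed block were added after the data were seen.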

Additional observations from a re-analysis of the deposited data

How the results depend on the processing

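Limma called 0 member probe sets and 0 of all probe sets under every setting tried, including an adjusted p under 0.10, and the replicate block called 0. The labels do not say whether the replicate numbers pair the arrays. Over all probe sets, replicate 1 minus replicate 2 in TCDD correlated at -0.189 with the same difference in DMSO, and the crossed pairing called 0 as well. The number of members with an unadjusted p under 0.05 by limma was 2 (13.3%), against 13.1% of all probe sets. Under the alternatives that kept all 4 arrays it was 1 to 4. The 4 came with the crossed pairing, where the number over all probe sets was 3081. In the main fit that number was 2958 of 22626 probe sets. It was 1577 of 13634 without dim probe sets, and 1449 of 12393 when the fit was run on 1 probe set per gene. The 14.5% given above for 1 probe set per gene (1791 of 12393) came from the main fit. Over all probe sets the number became 1960 under cyclic loess. It ranged from 1521 to 5733 with 1 array left out (1521 and 1911 without DMSO replicates 2 and 1, 4835 and 5733 without TCDD replicates 2 and 1).

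Member differences could not change under the 2 replicate blocks, the robust prior, the removal of dim probe sets or 1 probe set per gene. These settings leave the group means as they are, so their unchanged signs say nothing of stability. Of 165 member differences recomputed, these included, 159 did not take the opposite sign (a value of 0 has none), and 6 did. These were -0.01 under cyclic loess and -0.05 without DMSO replicate 2 for Tiparp 1452161_at, 0.40 without DMSO replicate 1 for Tiparp 1452160_at (range with 1 array left out -0.70 to 0.40), -0.03 under cyclic loess for Cyp1a1, -0.10 without TCDD replicate 1 for Cyp1b1 1416612_at (range -0.10 to 0.60) and 0.10 without DMSO replicate 2 for Cyp1b1 1416613_at. The cause was not tested. Members without overlap numbered 4, with 7 (46.7%) under cyclic loess, against 45% of all probe sets. With 1 array left out there were 7 to 9 (46.7% to 60%), against 53.2% to 71.1% of all probe sets, since a lone array meets the condition more easily.

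The chaperone median of 0.10 became 0.24 under quantile normalization, 0.24 under cyclic loess and -0.06 with the median over each gene's probe sets. With 1 array left out the list medians ranged from 0.03 to 0.18 for chaperones, from -0.02 to 0.18 for further targets and from -0.15 to 0.15 for bHLH-PAS relatives. They ranged from -0.65 to -0.08 for cofactors, which stood at -0.21 under quantile normalization, and from -0.55 to -0.20 for electron transfer and heme.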
